A study of Mus musculus with 16 samples.

Results

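Immature, non-cycling neutrophils were taken from the bone marrow (BM) of mice with and without a mammary tumor, as the stage of neutrophil development in which Camp, Ltf and Ngp, genes of the secondary granules, are strongly expressed. Members were chosen by measured expression. A cell was a member when Camp, Ltf and Ngp made up at least 1% of its unique molecular identifiers (UMIs, each of which counts 1 captured RNA molecule) and the calprotectin genes S100a8 and S100a9 at least 3%. Elane, Mpo and Prtn3, proteases and peroxidase of the earlier primary granules, had to stay under 1%, with at most 1 UMI of the proliferation genes Mki67 and Top2a together and at most 1 of the monocyte genes F13a1 and Ms4a6c together. Members were 9047 of the 31191 CD45+ BM cells that had over 200 and under 6000 genes and at most 10% mitochondrial UMIs, and the whole series holds 77636 cell barcodes in 16 libraries.

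The 9047 members came from 3 groups of 2 libraries, with 1306 and 1158 cells of non–tumor-bearing WT mice, which the labels call ctrl, 1470 and 1794 cells of 2208L tumor–bearing mice given vehicle, and 1467 and 1852 cells of 2208L tumor–bearing mice given IACS-70654. The tumor 2208L is a transplantable Trp53-null mammary tumor grown in WT BALB/c hosts that received it at 7 to 8 weeks of age, so the hosts carry no mutation. IACS-70654 is an oral inhibitor of the bromodomain that CBP and P300 share, and the vehicle was methylcellulose. The series text states 7 days on a schedule of 3 days on and 2 days off, whereas the study's text on BM states 6 days with 5 treatments. Live CD45+ Ter119- cells were sorted, and the series text has cells of 3 mice pooled for each treatment group, whereas the study's methods give 3 mice for each sample, so whether the 2 libraries of a group come from separate pools is unclear. WT mice had neither tumor nor vehicle, so those cannot be told apart.

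Neutrophils form in BM from myeloblasts through stages that fill their granules in order, first the primary granules, then the secondary granules with lactoferrin, cathelicidin and lipocalin, and last the gelatinase granules and secretory vesicles. Cells of the secondary granule stage, the myelocytes and metamyelocytes, leave the cell cycle and go on to become band and segmented neutrophils that enter the blood. Tumors that secrete growth factors such as G-CSF are known to speed up this production. CBP and P300 are acetyltransferases that mark enhancers and promoters with acetylated histones, to which their bromodomains bind.

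Members had a median of 4857 and 4955 UMIs per cell in the WT libraries, 7072 and 6989 in mice given vehicle, and 7330 and 7245 in those given IACS-70654, and their UMIs summed to between 6161227 and 14478687 per library. No barcode was shared between libraries. S100a8 and S100a9 held a median of 28.0 and 28.1% of a member's UMIs in WT, 33.0 and 32.7% in mice given vehicle, and 26.5 and 26.6% in those given IACS-70654, so a scaling by trimmed mean of M values (TMM) was used and all levels below are TMM-scaled CPM, the UMIs of a gene relative to a fixed total of member UMIs, unless stated. Scaling by library totals in its place moved the median log2 change over all genes from -0.03 to -0.34 for vehicle against WT and from 0.02 to 0.26 for IACS-70654 against vehicle. Replicates differed by little more than counting noise, and p-values measure only the spread between these libraries. RNA of other cells was low but unequal, since 9 B-cell markers summed to 251 and 297 CPM of all member UMIs in WT, 73.9 and 98.1 CPM in mice given vehicle, and 85.4 and 105 CPM in those given IACS-70654. In the same order, 9 T and NK markers summed to 359, 351, 279, 262, 110.4 and 113 CPM, most of it Cd3d, whereas Cd3e did not pass the filter on low counts. For IACS-70654 against vehicle, Cd3d was the only one of the 8 T and NK genes tested that passed the thresholds given below. The fall of this sum thus mainly follows that gene. The part of RNA of other cells in the changes below was tested only by leaving out members with a UMI of Cd79a, Cd79b, Cd3e, Cd3g, Nkg7 or Siglech.

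The label was read against genes outside the rule. Along the share of Camp, Ltf and Ngp, members were split into 3 tiers, a low tier under 4.10%, a middle tier, and a high tier over 8.05%. As the share is part of the rule, the following levels, scaled to the UMIs of each tier alone, are a description. Fcnb, a ficolin of early granules, lay between 9.30 and 21.4 CPM in the low tier and between 211 and 276 CPM in the high tier of the 6 libraries. Cebpe, the transcription factor that drives secondary granule genes, went from 90.01 to 153 CPM in the low tier to between 429.97 and 543 CPM in the high tier. Retnlg and Cxcr2, which mark late neutrophils, ran the other way, with 28203 to 30337 CPM of Retnlg in the low tier and 1782 to 2426 CPM in the high tier. Members thus spanned a range of maturity and the threshold lay within it, so immature is less apt for the low tier, and non-cycling rests on the 2 genes of the rule alone. Cells just inside the 1% threshold, with up to 1.2%, had 571 to 818 CPM of Cxcr2 and 32941 to 38114 CPM of Retnlg, and cells just outside it, from 0.8%, had 771 to 829.99 CPM and 34979 to 41128 CPM.

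Members made up 28.5 and 26.4% of the kept CD45+ cells in WT, 28.8 and 29.5% in the vehicle libraries, and 30.2 and 30.1% in the IACS-70654 libraries. The groups did not overlap, and the mean with vehicle was 1.68 percentage points above WT and that with IACS-70654 1.01 points above vehicle, each with p = 0.33 in an exact 2-sided permutation test, the smallest that 2 against 2 libraries allow. Without 1 library at a time these differences ran from 0.593 points (without WT replicate 2) to 2.76 points (without WT replicate 1) and from 0.652 points (without vehicle replicate 1) to 1.37 points (without vehicle replicate 2). The rule was also applied to cells thinned to 2000 UMIs, which left shallower cells out of the denominator. The limit of 1 UMI of Mki67 and Top2a was kept, which more cycling cells can pass after thinning, so the members are not the same cells. There the difference between IACS-70654 and vehicle was -2.49 points, so its direction is not stable over settings. With the threshold at 2% in place of 1% that difference was 0.215 points, and at 0.5% it was 0.597 points with overlapping groups (exact p = 0.67). Neutrophils by rule met its limits on S100a8 and S100a9, on the primary granule genes and on the monocyte genes. Of these, members were 42.7 and 41.2% in WT, 34.5 and 34.8% in mice given vehicle, and 42.1 and 42.3% in those given IACS-70654. With this denominator the difference between vehicle and WT was -7.27 points. Among cells past the granule threshold, those with at most 1 UMI of Mki67 and Top2a were 73.1 and 73.1% in WT, 70.5 and 69.8% in mice given vehicle, and 79.3 and 78.7% in those given IACS-70654, a description, since the rule used these genes and a limit in raw UMIs moves with depth. Between 143 and 270 members per library held 1 such UMI. The high tier held 38.7 and 39.7% of the members in WT, 32.4 and 31.8% in the vehicle libraries, and 27.1 and 30.3% in the IACS-70654 libraries. As the tiers are cut on a value of the rule, these shares are a description with no test, and they move with the comparisons of levels below.

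Tumor-bearing mice given vehicle were compared with WT mice to see what differs in immature neutrophils with the tumor. Among genes that reached a mean of 50 CPM in the higher group, the largest fall was in Thbs1, which encodes the secreted matrix protein thrombospondin 1, and the largest rises were in Upp1, Wfdc17, Asprv1 and Prok2. Of 11444 genes tested with edgeR's quasi-likelihood test, 518 rose (4.53% of genes) and 665 fell (5.81%), 10.3% in all. Here and below, a called gene had a log2 change beyond 0.5 in either direction and a Benjamini-Hochberg adjusted p below 0.01. With library totals the split became 180 higher and 2151 lower, so directions of small changes are relative to the scaling. DESeq2, which differs in test and scaling, called 368 higher and 239 lower, and edgeR with RLE size factors 549 and 632.

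Thbs1 (ENSMUSG00000040152, chr2:118111876-118127133 in GRCm38) stood at 94.5 and 98.7 CPM in the WT libraries and at 3.20 and 5.01 CPM in the vehicle libraries, a 22.9-fold fall (log2 change -4.52 ± 0.11 SE, adjusted p = 1.73e-54). The groups lay far apart, and the change stayed between -5.02 and -4.26 under 21 alternatives. Sntb1, which encodes the membrane scaffold beta-1-syntrophin, fell from 62.2 and 54.0 CPM to 13.9 and 12.9 CPM (-2.13 ± 0.10). Jun, a subunit of the AP-1 transcription factor, fell from 106 and 90.3 CPM to 55.0 and 52.7 CPM (-0.87 ± 0.07), whereas Junb, the related subunit, rose from 187 and 208 CPM to 399 and 401 CPM (1.02 ± 0.04). Of 18 immediate early and AP-1 genes, 5 rose and 4 fell, with a median log2 change of -0.11 beside -0.03 over all genes, whereas with library totals 2 rose and 5 fell (median -0.42, beside -0.34 over all genes).

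Upp1, the enzyme that splits uridine, rose from 21.97 and 21.8 CPM to 110.2 and 94.2 CPM (log2 change 2.21 ± 0.08, adjusted p = 3.07e-40). Asprv1, an aspartic protease, rose from 47.5 and 47.4 CPM to 196 and 201 CPM (2.06 ± 0.06), and Prok2, a secreted chemokine-like peptide also called Bv8, from 31.5 and 20.0 CPM to 107 and 108 CPM (2.05 ± 0.08). Tspo, a cholesterol-binding protein of the outer mitochondrial membrane, rose from 481 and 453 CPM to 1281 and 1246 CPM (1.43 ± 0.03). None of these groups overlapped, which the choice of these genes required. Wfdc17, a small secreted protein of activated myeloid cells, rose from 74.1 and 78.7 CPM to 273 and 367 CPM (2.08 ± 0.07), with more spread between its vehicle libraries than the others had. Its call was kept under 21 alternatives, but the change ran from 0.86 to 2.57. In thinned cells, Wfdc17 had a UMI in 13.8 and 14.1% of members in WT and 24.6 and 26.5% with vehicle. Among the B cells defined below, these shares were 14.3 and 11.5% in WT and 8.70 and 12.2% with vehicle. The WT share in members was thus close to that in B cells, and the part of free RNA in it was not tested.

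**Figure D1:**
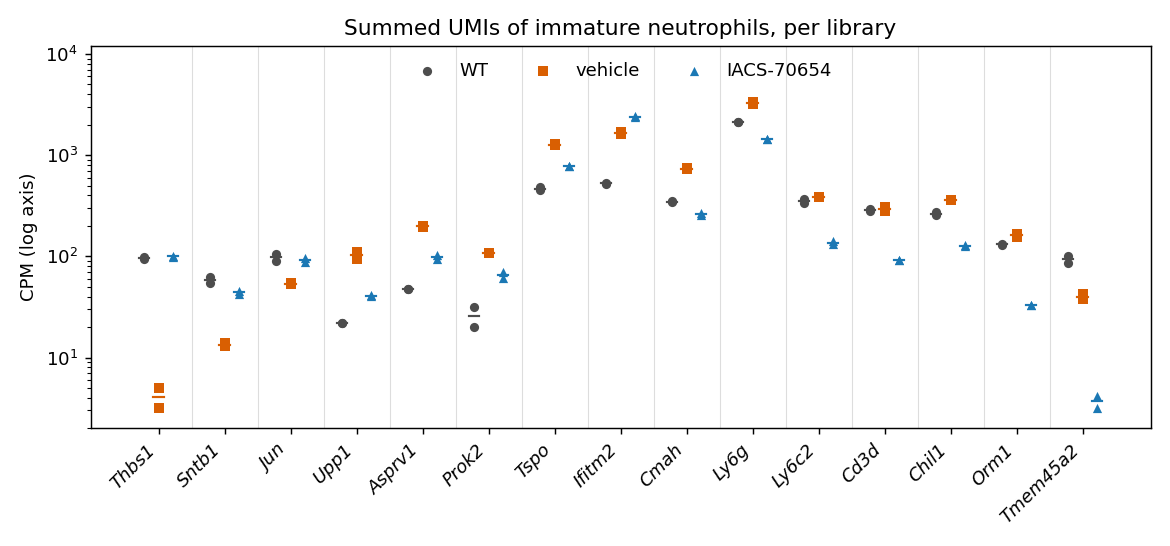
Levels of 15 genes in immature neutrophils, in CPM on a log axis, with a point for each of the 2 libraries of a group (WT, vehicle, IACS-70654) and a bar at the group mean. Thbs1 lies at 3.20 and 5.01 CPM with vehicle and between 94.5 and 100.005 CPM in the other groups, whereas Tmem45a2 lies at 3.20 and 4.18 CPM with IACS-70654 only.

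Of 10 genes on a list of the p200 and Ifitm families, which are induced by interferon, 5 rose and 2 fell (median 0.17). Those that rose were Ifitm1, Ifitm2, Ifitm3, Ifitm6 and Ifi27l2a, which is of neither family. Those that fell, Ifi203 and Mndal, are p200 genes, and no p200 gene was called higher. With DESeq2, and when members with a lymphoid UMI were left out, 5 rose and 0 fell. Over all 22 settings 3 to 5 rose, 0 to 3 fell and the median ran from -0.39 to 1.08. Ifitm2, a small membrane protein that blocks virus entry, went from 523 and 535 CPM to 1682 and 1621 CPM, a 3.12-fold rise (log2 change 1.64 ± 0.03), and Ifitm1, Ifitm3 and Ifitm6 rose by 1.41, 1.22 and 1.06 on the log2 scale, though Ifitm1 was at 0.43 and not called in the high tier. Of 28 other interferon response genes, 11 rose and 1 fell (median 0.36), with 3 higher and 2 lower when library totals set the scale, and 3 of 25 higher when cells were thinned to 2000 UMIs. Slfn4, a Schlafen gene of myeloid cells, rose from 410.0 and 388 CPM to 829 and 805 CPM (1.03 ± 0.03), and Oas1a, an antiviral sensor of double-stranded RNA, from 15.4 and 13.9 CPM to 26.7 and 26.9 CPM (0.86 ± 0.11). The call of Oas1a was lost in 1 of 21 alternatives, at 0.26. The antiviral gene Ifit2, at 7.097 and 5.93 CPM in WT and 3.73 and 3.56 CPM with vehicle, fell (-0.84), but its call was lost in 8 of 21 alternatives, among them DESeq2 (-0.83) and leaving out WT replicate 1 (-0.70) or vehicle replicate 2 (-0.80).

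Granule genes were read by granule type. Of 9 primary granule genes outside the rule, 2 rose and 1 fell (median -0.03). The one that fell was Nkg7, which is also on the list of T and NK markers, and 0 fell with DESeq2. Leaving out members with a lymphoid UMI could not test this fall, since that filter removes every member with a UMI of Nkg7. With library totals 0 of these 9 rose and 1 fell (median -0.34). Of 9 secondary granule genes outside the rule, 3 rose and none fell (median 0.29). Pglyrp1, an antibacterial peptidoglycan-binding protein, went from 2552 and 2584 CPM to 4342 and 4194 CPM (log2 change 0.73 ± 0.03), Anxa1, annexin A1, from 4161 and 3996 CPM to 6188 and 5960.4 CPM (0.57 ± 0.03), and Lcn2, the iron-siderophore-binding lipocalin, from 12062 and 11934 CPM to 17692 and 16691 CPM (0.52 ± 0.03). With library totals none of the 9 rose and 1 fell, so the direction of this group depends on the scale. The collagenase gene Mmp8 had 1501 and 1453 CPM in WT and 1331 and 1322 CPM with vehicle. Its change ran from -0.50 to -0.11 over 21 alternatives, with a call in 1 of them. In the main fit it was not called (-0.16 ± 0.03). Cebpe (303, 305, 333 and 309 CPM) and Fcnb (127, 123, 124 and 123 CPM, in both cases WT then vehicle) were not called either, with log2 changes of 0.08 and -0.03. Of 11 genes of tertiary granules and secretory vesicles, 1, Cd14, rose and 0 fell (median 0.26). The call of Cd14 was lost in 8 of 21 alternatives. Over 22 settings 0 to 3 of this list rose and the median ran from -0.05 to 0.31.

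Receptors for growth factors and chemokines shifted in a few members. Csf2rb, the common beta chain of the GM-CSF, IL-3 and IL-5 receptors, rose from 72.6 and 67.2 CPM to 158 and 148 CPM (log2 change 1.12 ± 0.06), and Csf2rb2 and Il4ra, the IL-4 receptor chain, rose by 1.78 and 1.24. Reads of Csf2rb and Csf2rb2 are hard to divide because the genes are near-identical. Kit, the stem cell factor receptor, fell from 5.32 and 3.41 CPM to 0.853 and 1.10 CPM (-2.14 ± 0.37), and the other 14 of 18 growth factor receptors, Csf3r for G-CSF among them (0.36 ± 0.04), were not called; with library totals the count was also 3 higher and 1 lower. Cxcr2, the receptor through which mature neutrophils leave BM, rose from 240.4 and 252 CPM to 452 and 439 CPM (0.85 ± 0.04), and Ccr1, a receptor for CC chemokines, from 158 and 152 CPM to 239 and 235 CPM (0.61 ± 0.04), a call lost in 4 of 21 alternatives. Of 20 genes on the trafficking list 3 rose and 1 fell, against 1 and 3 with library totals. The one that fell in the main fit was Thbs1, which is on that list but is not a receptor.

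Glycolysis genes rose in 7 of 18 cases with none lower (median 0.42), with examples in Pkm, pyruvate kinase, from 438 and 436 CPM to 683 and 657 CPM (log2 change 0.62 ± 0.03), and Slc16a3, a lactate exporter, from 61.6 and 64.5 CPM to 104 and 108 CPM (0.75 ± 0.06). Paired immune receptors tune activation through paired activating and inhibitory forms. Of 19 genes on their list, 6 rose (median 0.33). These were Pirb and Lilrb4a, by 0.59 and 0.66, Pira2 and Fcgr3, and also Fcer1g and Tyrobp, which are adaptors and not receptors. With library totals these counts were 1 higher and 1 lower of 18, and 0 of 19 in either direction. Of 22 granulocyte transcription factors, 1 rose and 6 fell (median -0.06). Cebpb, the C/EBP factor of emergency granulopoiesis, rose from 146 and 152 CPM to 243 and 253 CPM (0.74 ± 0.05), and Foxp1 and Zeb2, both repressors, fell by 0.52 and 0.52 on the log2 scale. Their calls were lost in 7 and 8 of 21 alternatives, among them leaving out WT replicate 2 (-0.44 for Foxp1 and -0.41 for Zeb2), vehicle replicate 1 (-0.44 and -0.45) or members with a lymphoid UMI (-0.36 and -0.21). Markers of other cells fell too, in 3 of 8 T and NK genes tested (median -1.03) and 5 of 9 dendritic cell genes (median -0.69). Of 9 B-cell markers, 8 fell (median -1.51), and Ebf1, the B-lineage factor, went from 80.3 and 93.2 CPM to 14.1 and 21.6 CPM. When members with a lymphoid UMI were left out, the genes called lower went from 665 to 410, and 2 of 20 transcription factors fell, against 6 of 22.

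IACS-70654 was compared with vehicle in tumor-bearing mice to see what differs at this stage in mice given the inhibitor. The paper reports that tumors of this model regressed when IACS-70654 was given alone. No library came from mice given IACS-70654 without a tumor, so inhibitor and tumor regression cannot be told apart. Their parts in the changes below were not tested. Thbs1 rose back to its WT level, the stefin genes of chromosome 16 rose well above theirs, and Tmem45a2, Orm1, Ly6g and the Ly6c genes fell. In all, 1081 genes rose (9.45%) and 730 fell (6.38%), 15.8% in all, against 2275 and 340 with library totals and 441 and 527 with DESeq2. Against WT, 851 genes rose (7.44%) and 909 fell (7.94%) with IACS-70654, 15.4% in all. The comparison uses the same vehicle libraries as that with WT, so a gene that is extreme in those libraries moves in both, and each comparison's values are given side by side with no overlap counted.

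Stefins are small intracellular inhibitors of cysteine proteases such as the cathepsins, and the mouse has a cluster of near-identical copies on chromosome 16 that myeloid cells express. Stfa3 (ENSMUSG00000054905, chr16:36450537-36455392 in GRCm38) stood at 168 and 169 CPM in WT, 244 and 263 CPM in mice given vehicle, and 3727 and 3688 CPM in those given IACS-70654, a 14.6-fold rise over vehicle (log2 change 3.86 ± 0.03, adjusted p = 4.83e-91). Cstdc5 went from 1289.8 and 1301 CPM to 9695 and 9859 CPM (2.92 ± 0.03), Cstdc4 from 274 and 332 CPM to 2377 and 2139 CPM (2.89 ± 0.04), and Stfa2 from 311 and 300.1 CPM to 2102 and 2125 CPM (2.79 ± 0.03). No level with IACS-70654 overlapped that of another group, though no overlap with vehicle was a condition for naming the largest changes.

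Stfa2l1, Cstdc6 and Stfa1 rose by 2.67, 2.56 and 2.27 on the log2 scale, and Csta3, which was not on the list and was added after its values were seen, by 3.36. Of the 10 stefin and cystatin genes tested, 7 rose and none fell (median 2.62, against 0.02 over all genes), and the 10 together summed to 1749 and 1788 CPM in WT, 3187 and 3221 CPM in mice given vehicle, and 21688 and 21666 CPM in those given IACS-70654. Cstb, the stefin outside this cluster, went from 73.5 and 70.0 CPM to 96.0 and 98.1 CPM (0.44 ± 0.05), and Cst3, the secreted cystatin C, from 435 and 419 CPM to 390.1 and 389 CPM (-0.13 ± 0.03). Neither was called against vehicle, and Cstb was called higher than in WT (0.66). As copies of the cluster share reads, the split between them is uncertain, but their sum is less so.

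Between vehicle and WT, 6 of the 10 had also risen (median 0.59), from Stfa2 (1.60 ± 0.05), Stfa1 (1.51 ± 0.25), Cstdc6 (1.5 ± 0.05) and Cstdc5 (1.26 ± 0.03) to Stfa3 (0.59 ± 0.04) and Stfa2l1 (0.58 ± 0.04), and with library totals 4 had. In the low tier of members Stfa3 did not rise with vehicle (-0.06), whereas its rise with IACS-70654 over vehicle stayed between 3.58 and 4.35 under 21 alternatives.

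**Figure D2:**
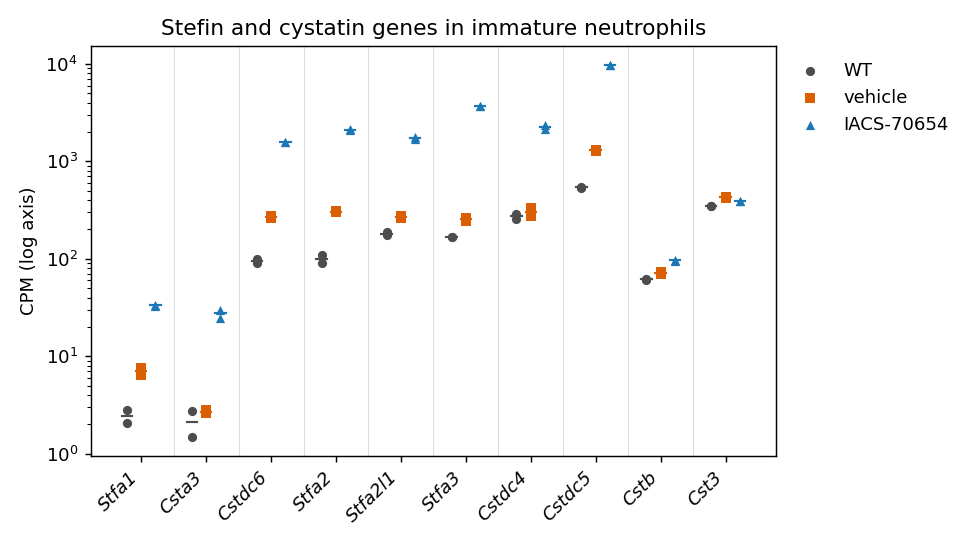
Levels of 10 stefin and cystatin genes in immature neutrophils, in CPM on a log axis, with a point for each library and a bar at the group mean of 2 libraries. The 8 genes of the chromosome 16 cluster lie highest with IACS-70654, Stfa3 at 3727 and 3688 CPM, whereas Cstb lies between 60.8 and 98.1 CPM and Cst3 between 347 and 435 CPM over all 6 libraries.

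The promoters of the stefins that moved together share stretches of sequence. RefSeq gives a transcription start for 7 of them on GRCm38.p6, and these promoters lie within 299 kb of chromosome 16. Within the 250 bases before and 50 after the start, the longest runs of letters that all 7 hold are 2 runs of 13 letters. The run ACCTTTAAAACCC begins 12 to 80 bases before the start and occurs on either strand in 9 of 32851 promoters of the same length (0.0274%). The run GATCATTTCTTCT begins between 48 bases before and 21 bases after the start and occurs in 10 of them (0.0304%). The letters TATAAA, on either strand, are in 0 of the 7 and in 13.6% of all promoters. GAGGAA, which ETS factors such as PU.1 can bind, is in 6 of 7 and in 28.3% of all. The counts of both runs over all promoters include the 7 stefin promoters, from which the runs were chosen. Near-identical copies share most of their sequence, so the runs are a description and not sites. For 5 genes with high levels, 120 bases before to 30 after the start are shown 5′ to 3′ on the gene's strand, with the first of these runs in capitals.
Stfa3 (chr16:36455363-36455512, minus strand): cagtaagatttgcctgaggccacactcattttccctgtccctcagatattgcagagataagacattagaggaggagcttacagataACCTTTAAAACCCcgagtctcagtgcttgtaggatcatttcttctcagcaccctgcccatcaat
Cstdc5 (chr16:36367541-36367690, minus strand): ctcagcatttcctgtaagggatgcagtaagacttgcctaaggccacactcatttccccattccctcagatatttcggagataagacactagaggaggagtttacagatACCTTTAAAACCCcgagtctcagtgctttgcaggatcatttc
Cstdc4 (chr16:36184092-36184241, plus strand): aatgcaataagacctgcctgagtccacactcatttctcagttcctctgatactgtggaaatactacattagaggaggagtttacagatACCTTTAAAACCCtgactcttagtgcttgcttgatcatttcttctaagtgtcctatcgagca
Stfa2 (chr16:36408334-36408483, minus strand): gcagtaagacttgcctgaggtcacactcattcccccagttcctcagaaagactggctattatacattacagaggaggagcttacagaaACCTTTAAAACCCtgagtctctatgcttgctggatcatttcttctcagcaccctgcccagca
Stfa2l1 (chr16:36156691-36156840, plus strand): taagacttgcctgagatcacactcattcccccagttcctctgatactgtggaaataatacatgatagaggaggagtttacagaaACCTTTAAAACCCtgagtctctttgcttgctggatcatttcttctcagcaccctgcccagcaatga

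The rise with IACS-70654 over vehicle was seen in the share of cells as well, whereas the called rise of Stfa3 with vehicle over WT was not seen after thinning. After thinning each cell to 2000 UMIs, Stfa3 had a UMI in 15.0 and 14.5% of members in WT, 12.9 and 14.8% in mice given vehicle, and 68.6 and 67.6% in those given IACS-70654, against 6.12 to 10.0% of the B cells of the same libraries, which should lack it. Without thinning it was 24.2 and 24.0%, 28.0 and 29.9%, and 80.6 and 79.0%. Members gave 1125 to 1811 cells and B cells 40 to 392 cells per library for these shares. B cells had at least 3 UMIs of Cd79a and Cd79b together and under 1% of S100a8 and S100a9. That limit can leave out B cells with more free neutrophil RNA, so their shares may be too low. Thbs1 had a UMI in 15.9 and 18.0% of thinned members in WT, 0.623 and 0.899% in mice given vehicle, and 16.1 and 15.1% in those given IACS-70654, with 0 to 2.50% of B cells over the libraries, and 0 and 1.02% in the vehicle libraries. For Thbs1 in vehicle against WT, and for both genes in IACS-70654 against vehicle, p was 0.33 in the exact permutation test, the smallest possible.

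Thbs1 rose from 3.20 and 5.01 CPM with vehicle to 100.005 and 99.4 CPM with IACS-70654, 23.6-fold (log2 change 4.56 ± 0.10), and did not differ between IACS-70654 and WT beyond the spread (0.05 ± 0.06, adjusted p = 0.549). Sntb1 rose to 42.1 and 45.8 CPM (1.73 ± 0.09), and Jun to 88.8 and 95.5 CPM (0.78 ± 0.06). Astn2, which encodes astrotactin 2, went from 147 and 162 CPM in WT to 86.8 and 75.6 CPM in mice given vehicle, and 173 and 156 CPM in those given IACS-70654 (-0.93 ± 0.06 and 1.02 ± 0.05 for the 2 steps). Upp1 fell to 40.3 and 41.2 CPM (-1.32 ± 0.06) and Asprv1 to 103 and 93.4 CPM (-1.02 ± 0.04), and both stayed above WT, by 0.90 and 1.04 on the log2 scale. Ifitm1, in contrast, rose a second time, from 112 and 118 CPM in WT over 314 and 296 CPM with vehicle to 1263 and 1304 CPM with IACS-70654 (2.08 ± 0.03 for the second step).

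Tmem45a2, a gene for a transmembrane protein, fell in both steps, from 100.05 and 86.9 CPM over 42.0 and 38.1 CPM to 3.20 and 4.18 CPM (log2 changes -1.23 ± 0.07 and -3.41 ± 0.12). Orm1, the acute-phase glycoprotein orosomucoid 1 of secondary granules, had 130.5 and 131 CPM in WT, 165 and 157 CPM in mice given vehicle, and 33.1 and 32.7 CPM in those given IACS-70654 (-2.29 ± 0.05 against vehicle, -1.06 and not called in the low tier). Chil1, a chitinase-like protein, fell from 357 and 359 CPM to 125 and 129.9 CPM (-1.49 ± 0.04), and Cmah, which makes a sialic acid, from 745 and 724 CPM to 268 and 259 CPM (-1.48 ± 0.03). Cd3d, a T-cell receptor chain gene whose partner Cd3e was too low here to be tested, fell from 305 and 279 CPM to 91.2 and 92.1 CPM (-1.67 ± 0.04). Among markers of other cells, 3 of 9 dendritic cell genes fell as well (Siglech, Ccr9 and Tcf4). Of 9 B-cell markers 0 were called, and 1 of 4 basophil and eosinophil genes, Prg2, rose. Hdc, which makes histamine, fell by 1.28 and Clec4e, a receptor for mycobacterial lipid, by 1.07 on the log2 scale.

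Ly6g and both Ly6c genes, which encode surface antigens used to sort myeloid cells, fell. Itgam, which encodes the sorting antigen CD11b, went from 987 and 964 CPM to 724 and 721 CPM and was not called (-0.43 ± 0.03). Ly6g, the classical neutrophil antigen, had 2144 and 2141 CPM in WT, 3379 and 3173 CPM in mice given vehicle, and 1433 and 1451 CPM in those given IACS-70654. It fell by 1.18 ± 0.03 against vehicle and by 0.57 ± 0.03 against WT, while its rise with vehicle (0.61 ± 0.03) was 0.30 and not called with library totals. Ly6c1 and Ly6c2, near-identical genes of the Ly6C antigen, fell from 386 and 374 CPM to 128 and 129.8 CPM and from 386 and 384 CPM to 132 and 140.4 CPM (-1.55 ± 0.04 and -1.49 ± 0.04). Ly6e, in contrast, rose from 71.6 and 74.6 CPM to 122 and 127 CPM (0.77 ± 0.05), so 3 of 5 Ly6 genes fell and 1 rose, under library totals too.

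Chaperones of the endoplasmic reticulum (ER), which fold secreted and granule proteins, rose in 13 of 20 cases, with 1 lower (median 0.88), whereas 0 of 20 were called for vehicle against WT (median 0.02). For vehicle against WT, 6 of the 20 had an unadjusted p under 0.05 in edgeR and 0 were called by DESeq2, and with library totals 2 were lower. Manf, a secreted ER protein, went from 32.002 and 28.1 CPM to 78.5 and 75.1 CPM (1.36 ± 0.07), Pdia6, a disulfide isomerase, from 14.2 and 17.4 CPM to 44.3 and 42.0 CPM (1.43 ± 0.09), and the master chaperone Hspa5 from 145 and 139 CPM to 231 and 212 CPM (0.64 ± 0.04). Atf4, a transcription factor of the integrated stress response, was the one that fell, from 80.1 and 81.9 CPM to 54.5 and 54.5 CPM (-0.57 ± 0.06). Its call was lost in 2 of 21 alternatives, over which the change reached -0.33. In the low tier of members the count was 4 of 19, and Hspa5 was at 0.11 there, whereas in the high tier it was 12 of 19, and with library totals 16 of 20.

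Genes of the mitochondrial genome rose in 6 of 13 cases with none lower (median 0.46; 12 of 13 with library totals), Nd1 (mt-Nd1) from 169 and 159 CPM to 244 and 265 CPM (log2 change 0.64 ± 0.04). The median share of mitochondrial UMIs per member was 0.538 and 0.548% in WT, 0.674 and 0.693% in mice given vehicle, and 0.916 and 0.989% in those given IACS-70654. Antioxidant genes went both ways, 5 of 17 higher and 3 lower, with Prdx1, a peroxiredoxin, from 34.7 and 38.4 CPM to 79.6 and 80.6 CPM (1.13 ± 0.06). Glycolysis genes fell in 5 of 18 cases (median -0.40; 1 of 18 with library totals), Slc16a3 from 104 and 108 CPM to 54.7 and 55.7 CPM (-0.94 ± 0.05). Of 19 genes on the list of paired immune receptors 5 fell and none rose (median -0.17, with 3 lower and 2 higher under library totals). The falls were led by Lilr4b (-1.09 ± 0.04) and Lilrb4a (-0.96 ± 0.03), whose reads are hard to divide.

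Of 22 granulocyte transcription factors, 5 rose and 1 fell. Trps1, a GATA-type repressor, had 68.2 and 79.6 CPM in WT, 77.7 and 86.9 CPM in mice given vehicle, and 268 and 266 CPM in those given IACS-70654 (log2 change 1.69 ± 0.05 against vehicle). Trerf1, a zinc finger regulator, rose from 6.83 and 8.32 CPM to 44.7 and 40.3 CPM (2.46 ± 0.11), Zeb2 from 32.6 and 35.8 CPM to 79.1 and 80.1 CPM (1.21 ± 0.07), and Id2, an inhibitor of helix-loop-helix factors, from 116 and 107 CPM to 181 and 178 CPM (0.70 ± 0.04). Cebpe, at 349.98 and 346 CPM with IACS-70654, was not called (0.12 ± 0.03). Interferon response genes were called higher in 6 of 28 cases and lower in 2 (median 0.10), and in 4 and 2 with DESeq2, 9 and 2 with library totals, and 1 and 2 of 25 in the middle tier. There were opposite signs within the Schlafen family, since Slfn5 rose from 9.60 and 8.06 CPM to 40.4 and 40.5 CPM (2.21 ± 0.10) and Slfn4 fell from 829 and 805 CPM to 368 and 360.1 CPM (-1.17 ± 0.03).

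Secondary granule genes outside the rule were lower in 3 of 9 cases and higher in none (median -0.16), namely Orm1, Olfm4, an olfactomedin of a neutrophil subset (-0.66 ± 0.04), and Slpi, a protease inhibitor (-0.55 ± 0.03), whereas with library totals 1 of the 9 rose, 1 fell and the median was 0.08. Lcn2, at 15663 and 15942 CPM, and Mmp8, at 1168 and 1199 CPM, were not called (-0.12 ± 0.03 and -0.16 ± 0.03), and Chil3, at 887 and 916 CPM in mice given vehicle, and 1205 and 1228 CPM in those given IACS-70654, was not called either (0.43 ± 0.03). Of 11 genes of tertiary granules and secretory vesicles, 2, Adam8 and Fpr2, fell and 0 rose (median -0.32, and 2 to 3 lower over 22 settings). Of 9 primary granule genes outside the rule, 2, Ctsc and Ms4a3, rose and 0 fell (median -0.16). Over 22 settings 1 to 4 of these rose, 0 to 1 fell and the median ran from -0.24 to 0.40. Of 18 growth factor receptors 0 were called by edgeR or DESeq2 (11 had an unadjusted p under 0.05 in edgeR), and Csf2rb stood at 154 and 147 CPM (-0.02 ± 0.04), near its level with vehicle. Of 14 acetyltransferase and bromodomain genes 0 were called by edgeR or DESeq2 in either comparison, with an unadjusted p under 0.05 in edgeR for 3 in vehicle against WT and 7 in IACS-70654 against vehicle. Crebbp, which encodes CBP, had 158, 159, 158, 160.5, 151 and 150.2 CPM in the 6 libraries, and Ep300, which encodes P300, had 131, 134, 134, 144, 135 and 138 CPM, with log2 changes of -0.08 ± 0.04 and -0.03 ± 0.04 for IACS-70654 against vehicle.

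**Figure D3:**
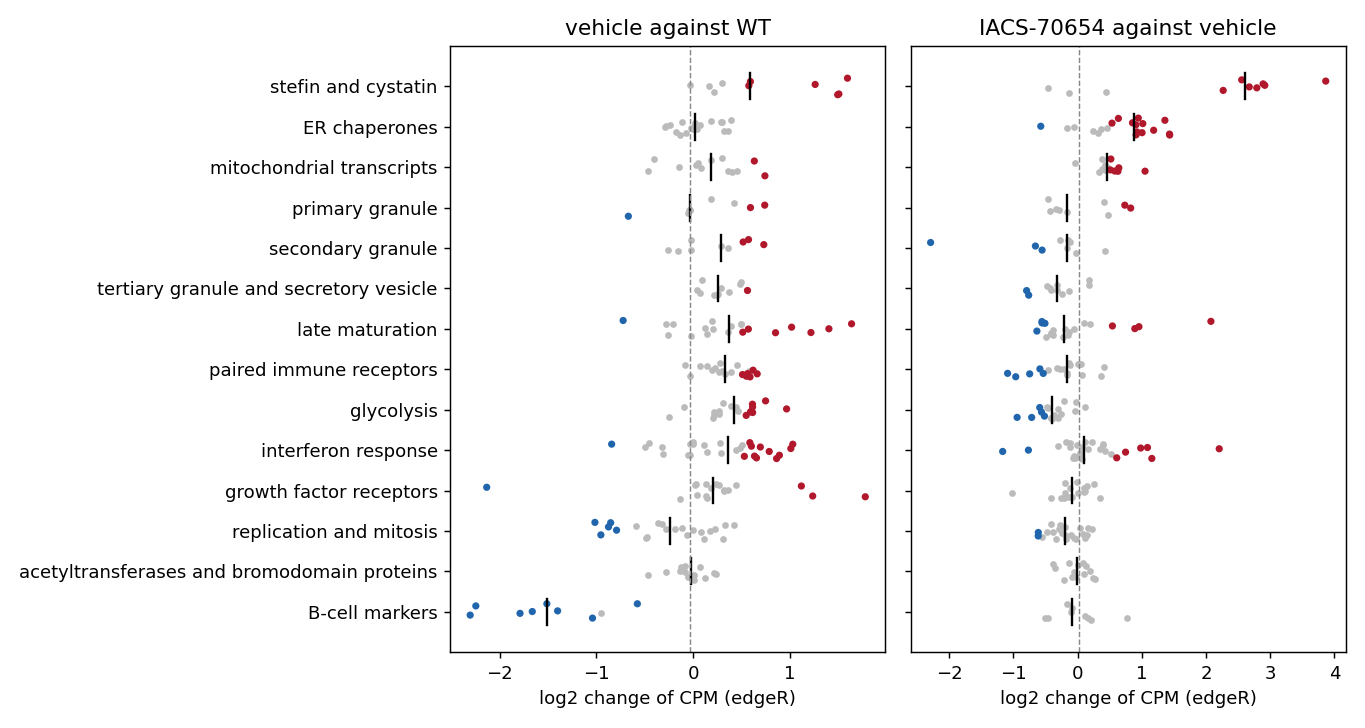
Log2 changes of the genes of 14 lists for vehicle against WT and IACS-70654 against vehicle, with a point for each gene (red called higher, blue called lower, grey not called), a black bar at the list's median and a dashed line at the median of all genes. The stefin and cystatin genes lie at a median of 2.62 and the ER chaperones at 0.88 with IACS-70654, and the B-cell markers at -1.51 with vehicle.

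The same genes were read within tiers of the members to see whether their levels follow maturity. CPM here are of the tier's own UMIs and are not TMM-scaled. Thbs1 lay between 91.0 and 142 CPM in every tier of the WT libraries and between 1.67 and 6.85 CPM in every tier with vehicle. With IACS-70654 it lay between 71.0 and 129 CPM. Stfa3 in WT ran from 37.4 and 64.5 CPM in the high tier to 481 and 351 CPM in the low tier, where late genes are highest, whereas with IACS-70654 it was already at 3048 and 2920.2 CPM in the high tier and at 4424 and 4498 CPM in the low tier. Ly6g was lower with IACS-70654 than in both other groups in each tier, at 1372 to 1670.4 CPM against 2031 to 3063 CPM. Mmp8 followed maturity in each group. In WT it ran from 725 and 712 CPM in the high tier to 2802 and 2849 CPM in the low tier. With vehicle it ran from 432 and 426 CPM to 2077 and 2062 CPM, and lay below WT in each tier on this scale. With IACS-70654 it ran from 512 and 499 CPM to 2041 and 2103 CPM.

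**Figure D4:**
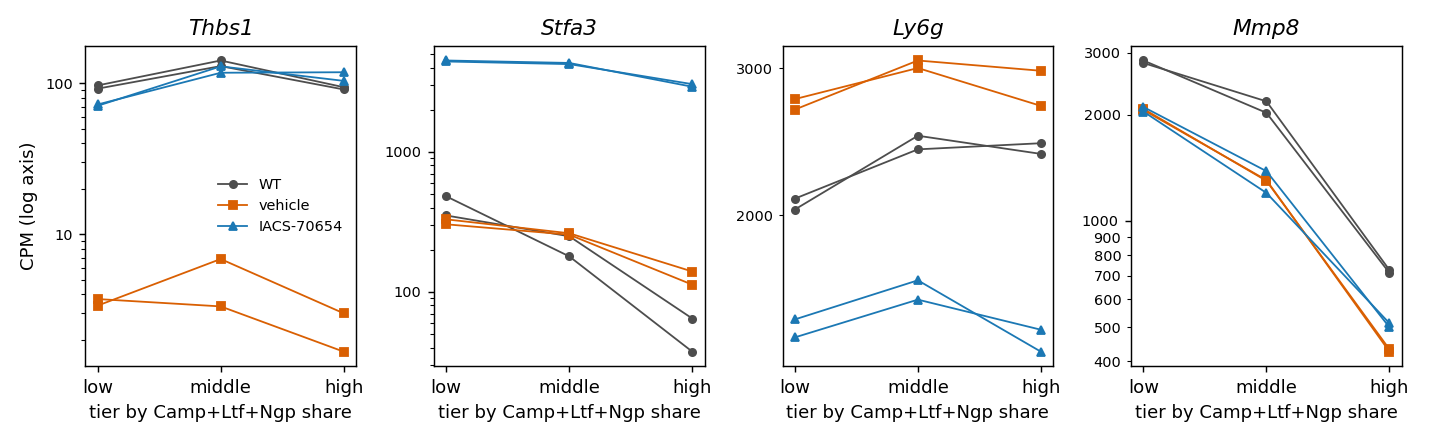
Levels of Thbs1, Stfa3, Ly6g and Mmp8 in the low, middle and high tier of the members by the share of Camp, Ltf and Ngp, in CPM of the tier's UMIs on log axes, with a line for each of the 6 libraries. The vehicle lines of Thbs1 stay between 1.67 and 6.85 CPM and the IACS-70654 lines of Stfa3 between 2920.2 and 4498 CPM in every tier.

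Whether a change differs between immature and mature neutrophils was tested as an interaction in edgeR with the library as a block, on sums over the members and over 10828 mature neutrophils, which met the same rule but held under 1% of Camp, Ltf and Ngp. For vehicle against WT the change differed for 234 genes (2.01% of 11635 tested), with the more positive change in immature cells for 95 (0.817%) and the more negative for 139 (1.19%). For IACS-70654 against vehicle it differed for 567 (4.87%), with 367 (3.15%) more positive and 200 (1.72%) more negative in immature cells. CPM in this comparison are scaled over all 12 sums. Cstdc4 rose with IACS-70654 from 289 and 349.99 CPM to 2493 and 2241 CPM in immature neutrophils, and from 1973 and 1922 CPM to 3421 and 3328 CPM in mature neutrophils, a difference of 2.09 ± 0.05 in log2 change. Stfa2l1 (1.94 ± 0.04) and Slfn5 (2.01 ± 0.11) likewise rose more in the immature cells, where they stood lower before. In mature cells Slfn5 stood at 139.6 and 126 CPM with vehicle and at 151 and 149 CPM with IACS-70654. These splits are not stable, since for IACS-70654 against vehicle they were 306 and 328 without WT replicate 1 and 308 and 315 without WT replicate 2, and for vehicle against WT 169 and 69 and 154 and 67. Without vehicle replicate 1 the counts in either direction were 141 and 365, without vehicle replicate 2 they were 166 and 373, and with DESeq2 they were 106 and 180.

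In the other direction, Zmpste24, which encodes the protease that matures lamin A, had 265 and 271 CPM in mice given vehicle, and 96.7 and 97.5 CPM in those given IACS-70654 in immature neutrophils, and 12.2 and 12.3 CPM and 18.6 and 17.8 CPM in mature neutrophils (difference -2.03 ± 0.14). Orm1 (-1.79 ± 0.27) was at 5.74 CPM or less in the vehicle and IACS-70654 libraries of mature cells. For vehicle against WT, Gch1, which starts the synthesis of tetrahydrobiopterin, went from 25.2 and 26.9 CPM to 55.8 and 52.3 CPM in immature neutrophils but was at 87.1 and 83.8 CPM and 83.0 and 84.2 CPM in mature neutrophils (1.08 ± 0.11). Wfdc17 rose in both but less in the immature cells (-1.61 ± 0.09), and reached 4940 and 4952 CPM in mature neutrophils with vehicle.

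**Figure D5:**
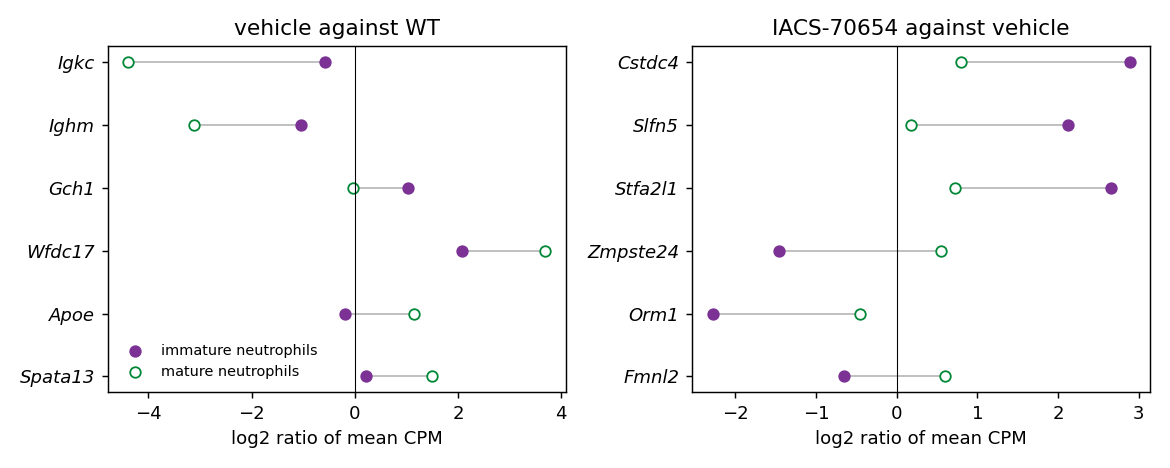
Log2 ratios of mean CPM in immature and in mature neutrophils for 12 genes whose change differed most between these stages, with a line joining both stages of a gene, for vehicle against WT and IACS-70654 against vehicle. Cstdc4 and Zmpste24 lie 2.09 and -2.03 apart by the tested difference, immature minus mature, and the values of Igkc and Ighm rest on 1 WT library.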

How the data were processed

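RNA of CD45+ BM cells was measured with 10x 3′ single-cell sequencing in 6 libraries of 3 groups. The authors aligned reads and counted UMIs with CellRanger (7.2.0 in the file headers, with mm10 in the submitters' processing notes) and assigned cells by CellPlex tag; the deposited values are raw, whole UMI counts for each gene in each cell. The study used Seurat integration and compared single cells, which was not repeated.

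UMIs were summed over the members of each library, because cells are not replicates. The quasi-likelihood test of edgeR (4.0.16, run in R 4.3.3) was fitted to all 6 libraries after TMM scaling and filterByExpr. A gene was called when its log2 change was beyond 0.5 in either direction with a Benjamini-Hochberg adjusted p below 0.01. SE is the log2 change over the root of F. Levels are CPM of the members' UMIs, and member sums held 6161227 to 14478687 UMIs, so that 1 UMI is well under 1 CPM. Shares used exact permutation tests over libraries with Python 3.11.15 and scipy 1.17.1; they cover sampling of these libraries only. DESeq2 1.42.0 served as an alternative, and further alternatives changed the scaling, filter, depth, rule and members. Doublets were not called; leaving out the 5% of members with most UMIs was tried instead. Scripts were tested on simulated data with 200 changed genes.

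The members and the 43 gene lists were chosen with earlier results of these data known. Named genes were, for each of the first 2 comparisons, the 10 largest called changes in each direction with a mean of at least 50 CPM in the higher group and no overlap, examples of up to 4 called genes per list (for a list without any, the 2 with the highest CPM), a fixed set that includes Crebbp, Ep300, Ly6g and Thbs1, and 3 genes in each direction for the interaction. Csta3, Cst3, Cstb, Hspa5, Calr, Il1b, Hsp90b1, Atf4 and Foxp1 were added after their values were seen, as were the promoter motifs. Promoter sequences are from RefSeq (GRCm38.p6), and gene positions from GENCODE on GRCm38. Replicate numbers did not pair libraries, since same-numbered libraries of 2 groups deviated together with correlations of 0.021 to 0.056. The lineage-negative and tumor libraries were not analysed here.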

Additional observations from a re-analysis of the deposited data

Results flagged for a closer look

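The change in 12 genes differed between immature and mature neutrophils by the test of that difference, given here as the log2 change in immature minus that in mature neutrophils. For vehicle against WT, the difference was 3.55 for Igkc and 2.01 for Ighm, the immunoglobulin chains. In mature cells Igkc had 122 and 2777 CPM in the 2 WT libraries and Ighm 92.4 and 613 CPM, and without WT replicate 2 the differences were 0.29 and 0.46 and were not called, so both rest on that library. DESeq2 gave 2.58 and 1.58 and called neither.

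For vehicle against WT, the difference was 1.08 for Gch1, -1.61 for Wfdc17, -1.35 for Apoe, the lipoprotein, and -1.29 for Spata13. Apoe stood at 11.7 and 9.95 CPM in WT and 10.0 and 8.95 CPM with vehicle in immature cells, and at 55.7 and 42.7 CPM and 110.4 and 109 CPM in mature cells. For IACS-70654 against vehicle, the difference was 2.09 for Cstdc4, 2.01 for Slfn5 and 1.94 for Stfa2l1, and -2.03 for Zmpste24, -1.79 for Orm1 and -1.28 for Fmnl2, a formin that builds actin filaments. Fmnl2 had 287 and 279.6 CPM with vehicle and 179 and 181 CPM with IACS-70654 in immature cells, against 22.8 and 20.1 CPM and 31.6 and 33.9 CPM in mature cells. Cells of the 2 stages differ in depth, with a median of 4857 to 7330 UMIs in immature and 2534 to 3641 in mature neutrophils, and its part in these differences was tested only by thinning to 1000 UMIs, after which 142 and 238 genes differed.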

How the results depend on the processing

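For 117 named genes under 21 alternatives, a result was counted as kept when the gene stayed called or stayed not called. For vehicle against WT, 2314 were kept, 117 lost the call, 23 gained it and 1 reversed. The numbers were 2392, 43, 19 and 1 for IACS-70654 against vehicle and 2382, 22, 50 and 1 for IACS-70654 against WT. Only genes called in either setting could count as reversed. Genes not called could thus change sign and count as kept, such as Adam8 for vehicle against WT (0.09, from -0.22 to 0.21). Reversed were Stfa3 in the low tier for vehicle against WT (-0.061), Ebf1 in the high tier for IACS-70654 against vehicle (-1.07) and Mcm5 in the middle tier for IACS-70654 against WT (0.044), and the cause was not tested.

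For vehicle against WT, where 518 genes rose and 665 fell, library totals gave 180 and 2151, DESeq2 239 lower, the low tier 399 lower, the middle tier 289 and 236, the high tier 211 and 153, thinning to 2000 UMIs 256 and 230, and leaving out members with a lymphoid UMI 410 lower. For IACS-70654 against vehicle (1081 and 730), library totals gave 2275 and 340, DESeq2 441 higher, the low, middle and high tier 445, 584 and 607 higher, and thinning 452 and 435. For IACS-70654 against WT (851 and 909), DESeq2 gave 485 and 557, the high tier 562 and 527, the middle tier 451 and 529, and thinning 508 and 525. Tiers and thinning hold fewer UMIs and test fewer genes.

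Without 1 library at a time the counts ranged from 463 to 544 higher and 482 to 664 lower for vehicle against WT, from 810 to 1121 and 627 to 747 for IACS-70654 against vehicle, and from 701 to 906 and 744 to 922 for IACS-70654 against WT. Genes whose change differed from mature neutrophils ranged from 141 to 292 and from 365 to 634, against 234 and 567, and were 106 and 180 with DESeq2 and 142 and 238 after thinning. The 234 split into 95 more positive and 139 more negative in immature cells, DESeq2's into 80 and 26, and the 567 into 367 and 200, but 306 and 328 without WT replicate 1, so neither split is stable. Shares of members differed by 0.593 to 2.76, 0.652 to 1.37 and 1.60 to 3.77 points without 1 library each, by -7.27 points for vehicle against WT as a share of neutrophils, and by -2.49 points for IACS-70654 against vehicle after thinning. With the replicate number as a block, 521 and 666, 1063 and 720, and 846 and 897 genes were called, but numbers did not pair the libraries. Depth limits what can be said of genes under a few CPM, such as Kit, and with 2 libraries a group no permutation p can go below 0.33.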

Other observations

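Lipid and inflammatory genes that belong in no group above also moved. Alox5ap, the activating protein of leukotriene synthesis, had 899 and 859 CPM in WT, 1573 and 1532 CPM with vehicle and 1224 and 1214 CPM with IACS-70654 (log2 change 0.82 ± 0.03 for vehicle against WT and -0.35 ± 0.03, not called, for IACS-70654 against vehicle). Il1rn, the antagonist of the interleukin 1 receptor, fell in both steps, from 44.4 and 40.5 CPM over 28.2 and 26.6 CPM to 14.2 and 17.1 CPM (-0.64 ± 0.09 and -0.79 ± 0.10), while Il1b, at 18.3 and 23.4 CPM in WT, had 28.6 and 30.5 CPM with vehicle and 35.3 and 32.5 CPM with IACS-70654 (0.51 ± 0.11 and, not called, 0.19 ± 0.08). The Il1b call for vehicle against WT was lost in 9 of 21 alternatives, among them library totals (0.21) and leaving out WT replicate 1 (0.35) or vehicle replicate 2 (0.47).

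Gclm, which supplies glutathione, rose from 31.9 and 31.3 CPM in WT to 78.5 and 74.6 CPM with vehicle (1.27 ± 0.08) and had 70.5 and 70.7 CPM with IACS-70654 (-0.11 ± 0.06). Bax, a pore former of apoptosis, had 15.3 and 17.8 CPM in WT, 16.7 and 15.6 CPM with vehicle and 35.7 and 33.1 CPM with IACS-70654 (1.09 ± 0.09 against vehicle), and Mcl1, a survival factor of neutrophils, rose from 228 and 235 CPM in WT to 338 and 357 CPM with vehicle (0.59 ± 0.04), a call lost in 4 of 21 alternatives, library totals among them (0.28). S100a6, a calcium-binding protein, rose from 3514 and 3545 CPM in WT to 7234 and 7042 CPM with vehicle (1.02 ± 0.03) and stood at 7527 and 7394 CPM with IACS-70654 (0.06 ± 0.03).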
